A study of Mus musculus with 9 samples.

Results

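Transcripts for iron uptake, storage and export were followed in J774A.1, a mouse macrophage cell line, across 9 poly-A RNA libraries. The 10 genes examined were Tfrc, Steap3, Slc11a2, Fth1, Ftl1, Ncoa4, Aco1, Ireb2, Slc40a1 and Hmox1, chosen by name from the 26157 genes of the table. The cells fell into 3 groups of 3 libraries. Q11 cells received the compound Q11 at the same time as the cytokines IL-4 and IL-13. M2 cells were given only the cytokines, at 10 ng/mL, to induce the alternatively activated (M2) state. Ctrl cells were cultured normally. By the series title Q11 inhibits CYP2E1, a cytochrome P450. Its dose, the cytokine dose in the Q11 cells and the length of treatment are not stated in the labels. All groups are 1 cultured line, and the labels do not say whether the libraries of a group came from separate cultures, so p-values measure the spread between these libraries, which may be technical.

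Macrophages recover iron from old red cells and return it to the blood. Transferrin-bound iron enters through the transferrin receptor, is reduced by STEAP3 in endosomes and leaves them through DMT1, the product of Slc11a2, while haem is opened by haem oxygenase. Iron that is not used is kept inside ferritin, a shell of heavy (Fth1) and light (Ftl1) chains, or is exported by ferroportin, the product of Slc40a1. The iron regulatory proteins IRP1 (Aco1) and IRP2 (Ireb2) bind a short RNA hairpin, the iron-responsive element, when iron is scarce. Bound in a 3′ untranslated region (UTR), as in the receptor mRNA, they keep the transcript from being degraded. Bound in a 5′ UTR, as in the ferritin and ferroportin mRNAs, they block translation.

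In M2 cells the receptor transcript Tfrc was 1.46-fold higher than in Ctrl cells and the exporter transcript Slc40a1 was 1.57-fold lower. The IRP1 gene Aco1 was 1.16-fold higher and the ferritin heavy chain gene Fth1 was 1.16-fold lower. The other 6 genes, among them the light chain Ftl1 and the haem oxygenase Hmox1, did not pass the test. Adding Q11 to the cytokines gave no call in any of the 10 genes against M2.

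The elements that the iron regulatory proteins bind are shown for the 4 of the 10 genes in which a search of GENCODE M21 transcripts (build GRCm38) found them, because they are what the receptor, ferritin and ferroportin mRNAs have in common. Each sequence is 29 bases, 5′ to 3′ on the transcript strand. The capitals mark the loop, CAGTG and a base other than G, and the search asked for an unpaired C before 5 stem pairs that close on the loop, with G-T pairs allowed and no mispair.
Tfrc 1, 3′ UTR, chr16:32631219-32631247, + strand: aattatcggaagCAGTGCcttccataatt
Tfrc 2, 3′ UTR, chr16:32631598-32631626, + strand: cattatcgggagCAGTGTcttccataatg
Tfrc 3, 3′ UTR, chr16:32631663-32631691, + strand: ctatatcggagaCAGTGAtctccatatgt
Tfrc 4, 3′ UTR, chr16:32631710-32631738, + strand: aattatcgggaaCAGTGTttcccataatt
Fth1, 5′ UTR, chr19:9982732-9982760, + strand: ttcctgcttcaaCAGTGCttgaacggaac
Ftl1, 5′ UTR, chr7:45459779-45459807, − strand: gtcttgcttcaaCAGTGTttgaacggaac
Slc40a1, 5′ UTR, chr1:45925465-45925493, − strand: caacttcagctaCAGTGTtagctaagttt

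A match of this kind was rare in the transcriptome, being present in the UTRs of 122 of 21877 genes with a protein-coding transcript (0.558%). The ferritin elements were near copies, with 26 of 29 bases identical between Fth1 and Ftl1. The Tfrc elements shared 18 to 25 of 29 bases with each other and 9 to 16 with those of the other 3 genes. No match was found in Steap3, Slc11a2, Ncoa4, Aco1, Ireb2 or Hmox1. The search allowed no mispair or bulge next to the loop, so it cannot find elements with an imperfect stem. It therefore does not show that these genes lack an element, or that Tfrc has no more than those listed.

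**Figure D1:**
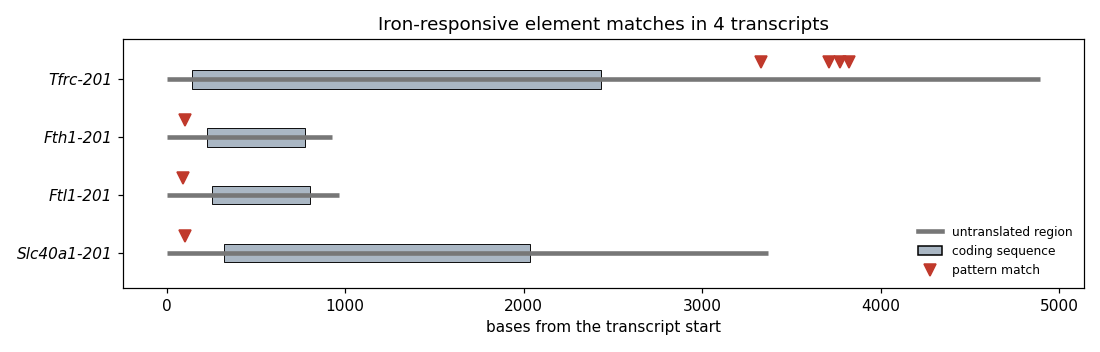
Positions of the iron-responsive element matches along 1 transcript each of Tfrc, Fth1, Ftl1 and Slc40a1, in bases from the transcript start (horizontal axis); thick boxes are coding sequence, lines are untranslated regions and triangles are matches. The 4 Tfrc matches lie after the coding sequence, and the single match of each of the other 3 genes lies before it.

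The libraries held between 15809432 and 17089171 reads, recovered from the deposited values, except Q11 replicate 2 with 32180914. Set against Q11 replicate 3, it held fewer reads in just 10 of 19235 genes, whereas the comparison with any of the other 7 libraries gave 1928 to 2406 such genes. Q11 replicate 2 was therefore treated as containing the reads of Q11 replicate 3, so the Q11 group may hold only 2 independent libraries. Results are given as deposited, and also with those reads separated where a call differs and for selected values. The separation left 15330205 reads in Q11 replicate 2. Other values shift with it too, and the Q11 SDs as deposited include 2 libraries that appear to share reads. Of the macrophage markers, 8 of 8 were present, with a summed level of 7530 to 7593 TPM in Q11, 7243 to 7803 in M2 and 10970 to 11360 in Ctrl libraries. The lower sum in the cytokine groups came with Lyz2 and Mpeg1, and its part in the iron results was not tested. Markers of erythroid, T, B, fibroblast and hepatocyte lineages reached at most 2.075 TPM, and of the neutrophil markers S100a8 lay at 16.1 to 38.0 TPM while Mpo and Elane reached at most 0.0598 and 1.004.

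Levels are given in TPM, a measure of transcript abundance scaled to the library and corrected for gene length, so genes can be compared with each other. In each of the 3 groups the order was the same, with Ftl1 highest, followed by Fth1, Tfrc, Hmox1, Steap3, Slc11a2, Aco1, Ireb2, Ncoa4 and Slc40a1. No neighbours in this order overlapped in any group. Ftl1 ranked 6 in Q11, 5 in M2 and 6 in Ctrl cells among the 14207 genes tested, and Fth1 ranked 21, 21 and 18 in the same groups. Tfrc ranked 132 in Q11, 137 in M2 and 207 in Ctrl cells, whereas Slc40a1 stood at 10515, 10323 and 9466. By TPM the exporter transcript was thus the scarcest of the 10. Its level of at least 3.91 TPM in every library still placed it, like the other members, above the filter of 1 TPM in all 9 libraries.

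**Figure D2:**
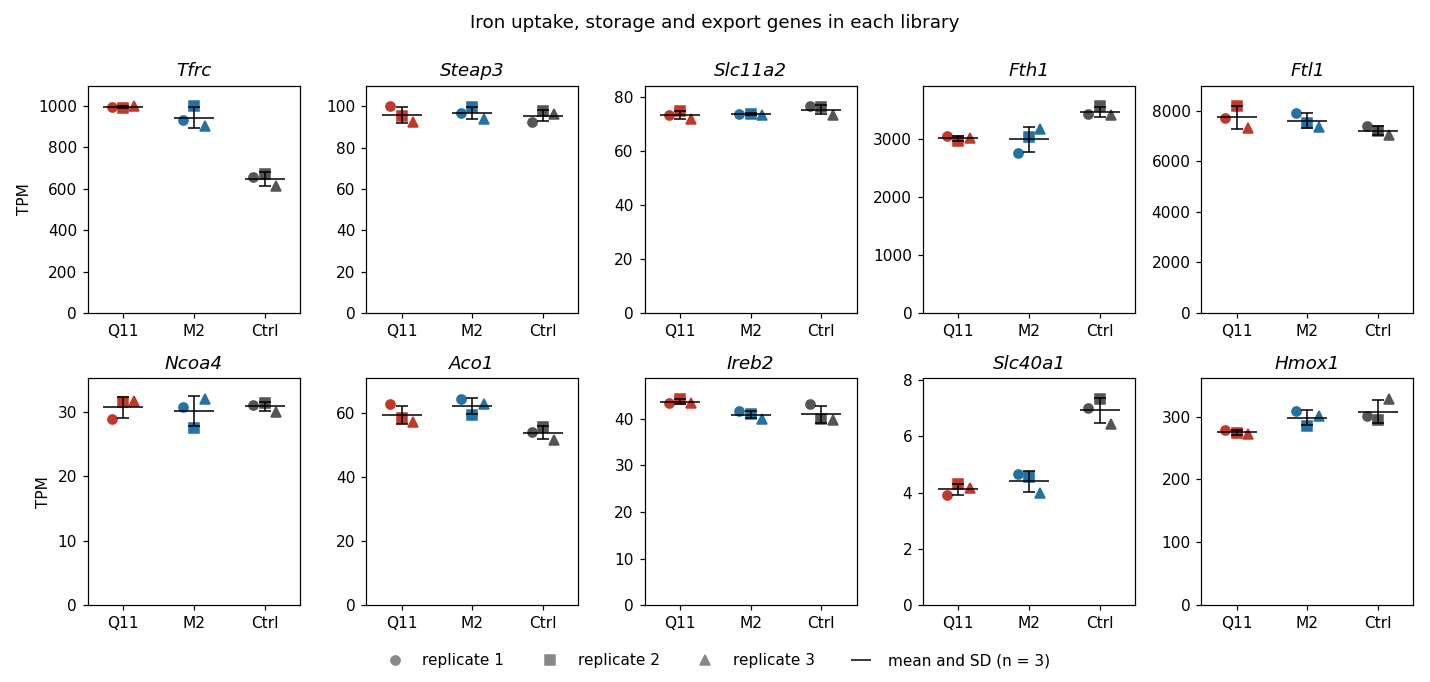
TPM of each of the 10 genes (vertical axis, from 0, with a scale of its own per gene) in the Q11, M2 and Ctrl libraries; circles, squares and triangles are replicates 1, 2 and 3, and lines with bars are the mean and SD of 3 libraries. Tfrc lies at 902 to 1000 TPM in the Q11 and M2 libraries and at 611 to 674 TPM in Ctrl, while Slc40a1 lies at 3.91 to 4.66 TPM and at 6.44 to 7.34 TPM in the same sets of libraries.

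M2 against Ctrl addresses what IL-4 and IL-13 change in these cells. Each gene was tested on log2(TPM + 1) with limma, a linear model fitted to all 14207 genes. The groups shared an estimate of spread, so p-values of M2 against Ctrl also depend on the Q11 libraries that appear to share reads. Adjusted p-values are by Benjamini-Hochberg across that whole set, and the threshold was 0.05. Of the 10 genes, 2 rose, 2 fell and 6 did not pass, against 12.6% of all genes called (6.88% higher and 5.75% lower). The median change was -0.02 over the 10 genes on the log2 scale. The 4 genes that passed were also those in which no M2 library overlapped a Ctrl library, as in 28.4% of all genes. With the shared reads separated the same counts were found in the 10 genes, against 9.35% of all genes called and 28.7% without overlap.

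Tfrc (ENSMUSG00000022797, GRCm38 chromosome 16, 32608920 to 32632794) encodes transferrin receptor 1, the main port of iron-loaded transferrin into cells. It stood at 933, 999 and 902 TPM in M2 libraries, against 659, 674 and 611 TPM in Ctrl libraries. Every M2 library lay above every Ctrl library. The means were 945 ± 49.9 TPM in M2 and 648 ± 32.5 TPM in Ctrl (SD; all groups have n = 3 libraries), and the log2 change was 0.54 (95% interval 0.44 to 0.64, limma adjusted p = 1.22e-04). The call held in all 19 alternative settings run, with changes of 0.50 to 0.58 and an adjusted p of at most 0.00239. As these are bulk libraries, more cells with the transcript and more transcript per cell cannot be told apart, for Tfrc and for the genes that follow.

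The other uptake genes gave no call. Steap3, the ferrireductase of the transferrin endosome, lay at 96.6, 99.7 and 93.6 TPM in M2 libraries and at 92.5, 97.8 and 96.1 TPM in Ctrl libraries, and the groups overlapped (log2 change 0.02, 95% interval -0.07 to 0.11, adjusted p = 0.837 by limma). Slc11a2, whose product DMT1 carries ferrous iron out of endosomes, lay at 74.0, 73.9 and 73.5 TPM in M2 libraries and at 76.7, 76.3 and 73.4 TPM in Ctrl libraries. The lowest Ctrl library lay just below all M2 libraries, and the interval of the log2 change ran from -0.10 to 0.04 (adjusted p = 0.555). A gene on the opposite strand, Gm5475, overlaps 402 bases of Slc11a2 but reached at most 0.245 TPM, and the library kit was not stated to keep strand.

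Slc40a1 (ENSMUSG00000025993, chromosome 1, 45908068 to 45926523) encodes ferroportin, the known cellular exporter of iron. It read 4.66, 4.56 and 3.97 TPM in M2 libraries, against 6.99, 7.34 and 6.44 TPM in Ctrl libraries. These levels rested on 211, 192 and 171 reads in M2 and on 305, 334 and 283 reads in Ctrl libraries, so even the highest M2 library held fewer reads than the lowest Ctrl library. The means were 4.40 ± 0.370 TPM in M2 and 6.92 ± 0.452 TPM in Ctrl, a level that fell by 36.5%. The log2 change of TPM + 1 was -0.55 (95% interval -0.76 to -0.34, limma adjusted p = 0.00587), a scale that understates the change of a gene this low. It passed in all 19 alternatives, with changes of -0.66 to -0.50 and an adjusted p of at most 0.0262.

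**Figure D3:**
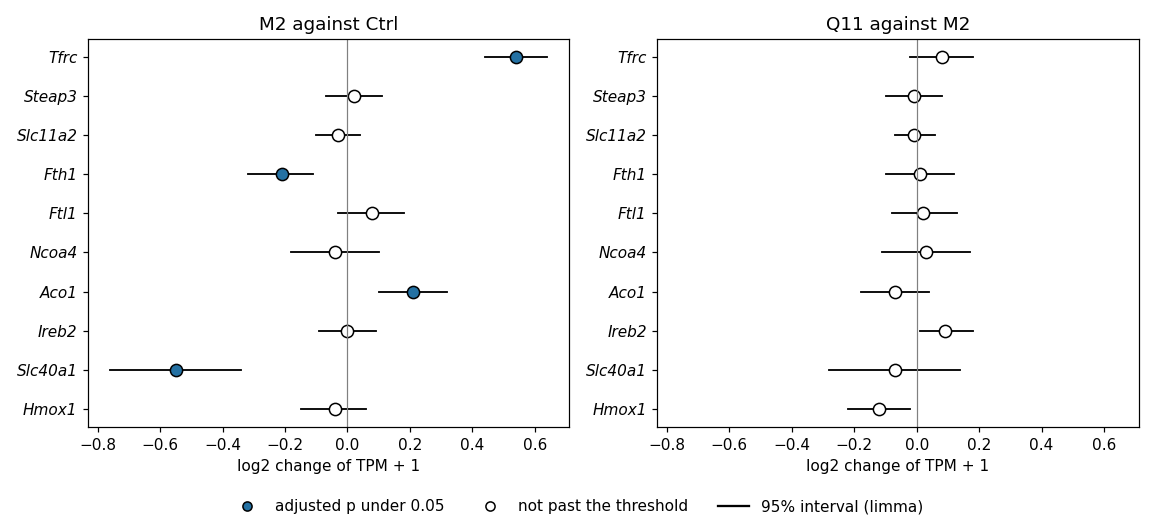
Log2 change of TPM + 1 (horizontal axis) for each of the 10 genes in M2 against Ctrl (left) and Q11 against M2 (right), with the 95% interval from limma; filled points passed an adjusted p of 0.05. Tfrc at 0.54, Aco1 at 0.21, Fth1 at -0.21 and Slc40a1 at -0.55 are filled on the left, and no point is filled on the right.

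Of the ferritin chains, the heavy one fell and the light one did not pass the test. Fth1 (ENSMUSG00000024661, chromosome 19, 9980598 to 9985098), the heavy chain that oxidises ferrous iron for storage, stood at 2767, 3045 and 3179.6 TPM in M2 libraries, against 3429, 3571 and 3421 TPM in Ctrl libraries. All M2 libraries lay below all Ctrl libraries, and M2 replicate 1 was the lowest of the 9. The means were 2997 ± 210.2 TPM in M2 and 3473 ± 84.4 TPM in Ctrl, with a log2 change of -0.21 (95% interval -0.32 to -0.11, limma adjusted p = 0.0196). The call was lost when quantile normalization was used (log2 change -0.14, adjusted p = 0.159), with no filter on low values (0.0872), without the mean-variance trend (0.0531), with only the M2 and Ctrl libraries in the fit (0.0649), without Ctrl replicate 1 (0.0525) and without Ctrl replicate 2 (0.0659).

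Ftl1, the light chain that favours iron mineral formation inside the shell, stood at 7931, 7500.1 and 7376 TPM in M2 libraries and at 7398, 7213 and 7034 TPM in Ctrl libraries. The groups overlapped by 1 library, and the log2 change of 0.08 (95% interval -0.03 to 0.18) did not pass (limma adjusted p = 0.354). Processed copies of both genes are in the genome and can take up reads. The Ftl copies carried 0.778 to 1.49% of the Ftl1 level and the Fth1 copy 0.0822 to 0.288% of the Fth1 level across the 9 libraries. Gm10252, on the opposite strand over 355 bases of Ftl1, reached at most 6.42 TPM. Gm22133, on the same strand over 109 bases of Ftl1, has no deposited value, so its share of reads is unknown.

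The ratio of Fth1 to Ftl1 was 0.349, 0.406 and 0.431 in M2 libraries, against 0.463, 0.495 and 0.486 in Ctrl libraries. Its size rests on the gene lengths used, which are the same in every library. No M2 library reached the Ctrl range, and the means were 0.395 ± 0.0421 in M2 and 0.482 ± 0.0163 in Ctrl. The log2 difference of -0.29, taken on TPM + 1, gave p = 0.1 in a two-sided exact permutation test, which is the smallest p that 3 against 3 libraries can give. Both chains together took up 1.06 ± 0.00858% of all TPM in M2 and 1.07 ± 0.0204% in Ctrl cells (exact permutation p = 0.6). As a share of TPM, the ferritin sum therefore differed by less than the spread between the Ctrl libraries, while the chain ratio did not overlap. The gene lengths used set the weight of each chain in this sum. Recovered reads were 48267, 49463 and 52727 for Fth1 and 53433, 47059 and 47248 for Ftl1 in M2 libraries. In Ctrl libraries they were 57687, 62665 and 57948 for Fth1 and 48081, 48896 and 46028 for Ftl1. A sum with other weights was not tested, so an unchanged ferritin mRNA load is not shown.

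Ncoa4, the cargo receptor that delivers ferritin to lysosomes for breakdown, lay at 30.7, 27.5 and 32.1 TPM in M2 libraries and at 31.1, 31.3 and 30.0 TPM in Ctrl libraries. The M2 values spanned the Ctrl range on both sides, and the log2 change was -0.04 (95% interval -0.18 to 0.10, limma adjusted p = 0.769).

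Of the iron regulatory proteins, IRP1 but not IRP2 was called, and the difference between them was not tested. Aco1 (ENSMUSG00000028405, chromosome 4, 40143081 to 40198338) encodes IRP1, which also works as cytosolic aconitase when it carries an iron-sulfur cluster. It stood at 64.6, 59.6 and 63.0 TPM in M2 libraries, against 54.1, 55.8 and 51.7 TPM in Ctrl libraries. The groups did not overlap, and the means were 62.4 ± 2.56 TPM in M2 and 53.9 ± 2.04 TPM in Ctrl (log2 change 0.21, 95% interval 0.10 to 0.32, limma adjusted p = 0.0231). The call was lost without the mean-variance trend (0.0523), without Ctrl replicate 1 (0.0632), without Ctrl replicate 3 (0.0782), without M2 replicate 1 (0.0754) and without M2 replicate 3 (0.064), and the change was 0.18 to 0.24 over all 19 alternatives.

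Ireb2 encodes IRP2, which is removed by degradation when iron is plentiful. Its levels were 41.6, 41.0 and 40.0 TPM in M2 libraries and 43.1, 40.0 and 39.7 TPM in Ctrl libraries. The M2 values lay within the Ctrl range, and the interval of the log2 change ran from -0.09 to 0.09 (limma adjusted p = 0.988).

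Hmox1 encodes haem oxygenase 1, which frees iron from haem and is a known marker of haem-handling macrophages. Its levels were 309, 285 and 300.1 TPM in M2 libraries and 300.2, 293.8 and 329 TPM in Ctrl libraries, with both groups covering much the same range. The means were 298 ± 12.1 TPM in M2 and 308 ± 18.5 TPM in Ctrl, and the log2 change was -0.04 (95% interval -0.15 to 0.06, limma adjusted p = 0.605).

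The ratio of Tfrc to Slc40a1 sets uptake beside export within each library, and its size also rests on the gene lengths used. It was 254, 231 and 240.0 in Q11 libraries, 200.0, 219 and 227 in M2 libraries, and 94.3, 91.9 and 95.0 in Ctrl libraries. The means were 242 ± 11.8 in Q11, 215 ± 13.8 in M2 and 93.7 ± 1.63 in Ctrl, and no library of the cytokine groups came near the Ctrl values. The difference in log2 ratio between M2 and Ctrl, taken on TPM + 1, was 1.1, and 1.2 with nothing added to the TPM (two-sided exact permutation p = 0.1, the smallest p this design can give). Every M2 library lay above every Ctrl library in Tfrc and below it in Slc40a1. This p was therefore fixed in advance and adds nothing to the tests of the 2 genes. Between Q11 and M2 the difference in log2 ratio was 0.15 on TPM + 1, again with an exact permutation p = 0.1. With the shared reads separated, Q11 replicate 2 stood at 221, within the M2 range, and the difference was 0.13 (exact permutation p = 0.2).

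**Figure D4:**
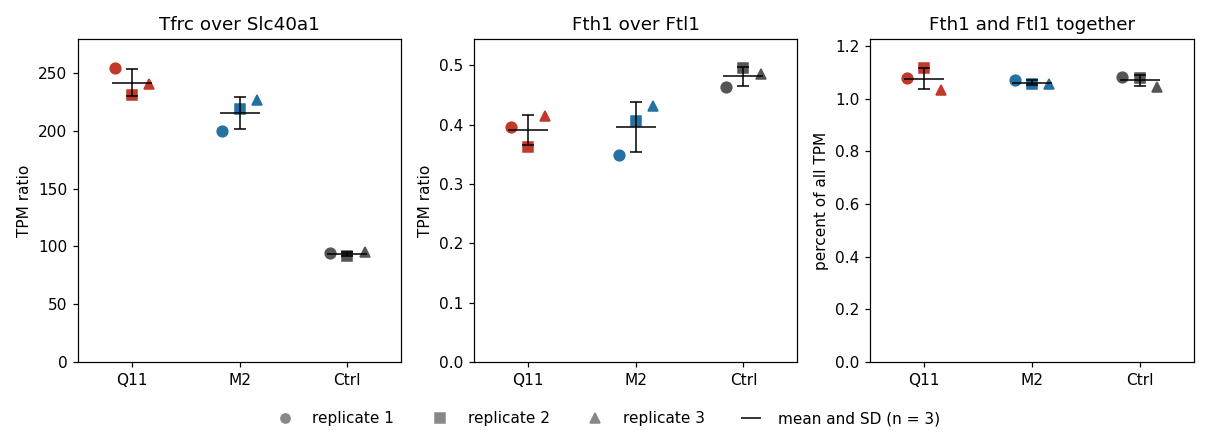
Ratio of Tfrc to Slc40a1 TPM, ratio of Fth1 to Ftl1 TPM, and Fth1 and Ftl1 together as percent of all TPM (vertical axes, from 0) in the Q11, M2 and Ctrl libraries; symbols are replicates and lines with bars are the mean and SD of 3 libraries. The Tfrc to Slc40a1 ratio averages 242 in Q11, 215 in M2 and 93.7 in Ctrl, the Fth1 to Ftl1 ratio averages 0.391, 0.395 and 0.482, and the summed share as deposited lies between 1.03 and 1.12%; the values plotted are those before the shared reads were separated.

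Q11 against M2 addresses what the compound adds to the cytokines. None of the 10 genes passed limma's test, and none of all 14207 genes did (0.0% called). At an unadjusted p of 0.05 limma listed 1620 genes as deposited and 1137 once the shared reads were separated, and limma-voom on the recovered reads called 2 genes, none of them in the set of 10. Tfrc stood at 995, 993 and 999.5 TPM in Q11 libraries, against 933, 999 and 902 TPM in M2 libraries, and the highest M2 library fell among the Q11 libraries. The log2 change was 0.08 with an interval of -0.02 to 0.18 (adjusted p = 0.538). Slc40a1 stood at 3.91, 4.30 and 4.16 TPM in Q11 libraries, against 4.66, 4.56 and 3.97 TPM in M2 libraries. The ranges overlapped, and the interval of the log2 change, -0.28 to 0.14, leaves room for a change in either direction.

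The ferritin genes did not separate Q11 from M2. Fth1 lay at 3058, 2969 and 3026 TPM in Q11 libraries, inside the M2 range of 2767 to 3179.6 TPM, with a log2 change of 0.01 (95% interval -0.10 to 0.12). Ftl1 lay at 7714, 8183 and 7311 TPM in Q11 libraries and at 7931, 7500.1 and 7376 TPM in M2 libraries, a log2 change of 0.02 (95% interval -0.08 to 0.13). With the shared reads separated, Q11 replicate 2 held 9185 TPM of Ftl1, the highest of the 9 libraries, and the log2 change was 0.08 (95% interval -0.09 to 0.25, limma adjusted p = 0.804). The ratio of Fth1 to Ftl1 averaged 0.391 ± 0.0259 in Q11 and 0.395 ± 0.0421 in M2 (log2 difference -0.012, exact permutation p = 0.9). With the shared reads separated, Q11 replicate 2 had a ratio of 0.318, the lowest of the 9 libraries, and the difference was -0.076 (exact permutation p = 0.6). The ferritin share of that library was then 1.21% of all TPM, above the other 8, against 1.115% as deposited.

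Hmox1 and Ireb2 were the members in which Q11 and M2 libraries did not overlap, 2 of 10 genes against 17.6% of all genes (12.7% with the shared reads separated). Hmox1 stood at 279, 274 and 272 TPM in Q11 libraries, against 309, 285 and 300.1 TPM in M2 libraries. All Q11 values lay below the lowest value of any other library, yet the log2 change of -0.12 (95% interval -0.22 to -0.02) did not survive adjustment (unadjusted p = 0.0284, adjusted p = 0.385 by limma). Ireb2 stood at 43.5, 44.4 and 43.3 TPM in Q11 libraries, against 41.6, 41.0 and 40.0 TPM in M2 libraries. Its log2 change of 0.09 (95% interval 0.01 to 0.18) did not pass either (unadjusted p = 0.0404, adjusted p = 0.413 by limma). With the shared reads separated, the changes were -0.11 for Hmox1 (adjusted p = 0.592) and 0.11 for Ireb2 (adjusted p = 0.589).

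The other members overlapped between Q11 and M2 as well. Aco1 lay at 62.8, 58.4 and 57.3 TPM in Q11 libraries and at 64.6, 59.6 and 63.0 TPM in M2 libraries (log2 change -0.07, 95% interval -0.18 to 0.04). Steap3 averaged 95.8 ± 3.9 TPM in Q11 and 96.6 ± 3.07 TPM in M2, with an interval of -0.10 to 0.08. Slc11a2 averaged 73.4 ± 1.63 TPM in Q11 and 73.8 ± 0.258 TPM in M2, with an interval of -0.07 to 0.06. With the shared reads separated its Q11 mean was 74.7 ± 3.79 TPM and the interval was -0.08 to 0.11. Ncoa4 averaged 30.7 ± 1.63 TPM in Q11 and 30.1 ± 2.33 TPM in M2, with an interval of -0.11 to 0.17. Across these 4 genes the interval bounds ran from -0.18 to 0.17 on the log2 scale.

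Q11 against Ctrl uses the same Ctrl libraries as M2 against Ctrl and the same Q11 libraries as Q11 against M2, so it is not independent of either. By limma, 1 of the 10 genes rose, 2 fell and 7 did not pass, against 10.7% of all genes called (5.19% higher and 5.53% lower, and 7.97% in all with the shared reads separated). Tfrc averaged 996 ± 3.27 TPM in Q11 and 648 ± 32.5 TPM in Ctrl (log2 change 0.62, adjusted p = 6.35e-05), where M2 against Ctrl gave 0.54. Slc40a1 averaged 4.12 ± 0.197 TPM in Q11 and 6.92 ± 0.452 TPM in Ctrl (log2 change -0.63, adjusted p = 0.00325), where M2 against Ctrl gave -0.55. Both genes passed in all 19 alternatives of this comparison.

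Fth1 averaged 3018 ± 44.8 TPM in Q11 and 3473 ± 84.4 TPM in Ctrl, with a log2 change of -0.20 (limma adjusted p = 0.0278, 0.0335 with the shared reads separated). It passed in 9 of 19 alternatives. The call was lost without any one of Ctrl replicates 1, 2 and 3 (adjusted p = 0.0664, 0.089 and 0.0622) and without any one of Q11 replicates 1, 2 and 3 (0.0644, 0.0962 and 0.0868), as well as with quantile normalization (-0.15, adjusted p = 0.122), with no filter (0.112), without the mean-variance trend (0.0708) and with the replicate block (0.0518). Aco1 stood at 59.5 ± 2.91 TPM in Q11 and 53.9 ± 2.04 TPM in Ctrl and did not pass (log2 change 0.14, adjusted p = 0.106). Hmox1 stood at 275 ± 3.51 TPM in Q11 and 308 ± 18.5 TPM in Ctrl and lay just outside the threshold (log2 change -0.16, limma adjusted p = 0.0545). With the shared reads separated its limma adjusted p was 0.0798. Hmox1 passed in 6 of 19 alternatives, with adjusted p from 0.00872 to 0.164 over all of them. Groups did not overlap in 6 of the 10 genes, against 32.1% of all genes (26.8% with the shared reads separated).

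The genes most like Tfrc and Slc40a1 across the 9 libraries were looked up by Pearson correlation of log2(TPM + 1), over libraries that fall into 3 groups and among tested genes averaging 5 TPM or more. Klhl33 (r = 0.994), Akap8 (0.992) and Dse (0.990) were most like Tfrc. Klhl33 averaged 11.8 TPM in Q11, 11.1 TPM in M2 and 4.69 TPM in Ctrl cells. Myo1f (r = 0.989), Mllt11 (0.988) and Zranb3 (0.987) were most like Slc40a1. Myo1f, an unconventional myosin gene, averaged 121.5 TPM in Q11, 124 TPM in M2 and 169.8 TPM in Ctrl cells.

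Promoter windows of 300 bases around the start were taken from RefSeq (GRCm38.p6) for 7 of the 10 genes, in 14 windows. On either strand, the hypoxia response core ACGTG was present in 4 of these windows, in Tfrc and Ncoa4, and in 19.6% of 32851 windows of all genes. The STAT6-type palindrome, TTC and GAA parted by 4 bases, was present in 1 window, in Steap3 (6.95% of all windows), and the antioxidant response core TGACNNNGC in 1 window, in Ncoa4 (12.4%). No window was searched for Slc40a1, Hmox1 or Slc11a2.

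Beyond the 10 genes, 63 others from lists of iron and haem handling were looked up, of which 56 were found and 44 passed the filter. In M2 against Ctrl, 5 of the 44 rose and 6 fell (25.0%, against 12.6% of all genes), with a median log2 change of -0.01. In Q11 against M2 none of the 44 passed limma's test, and in Q11 against Ctrl 6 rose and 4 fell (22.7%, against 10.7% of all genes). With the shared reads separated the counts were 5 and 5 in M2 against Ctrl, 0 in Q11 against M2, and 5 and 4 in Q11 against Ctrl. The shares of all genes called were then 9.35%, 0.0% and 7.97% in the same order.

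**Figure D5:**
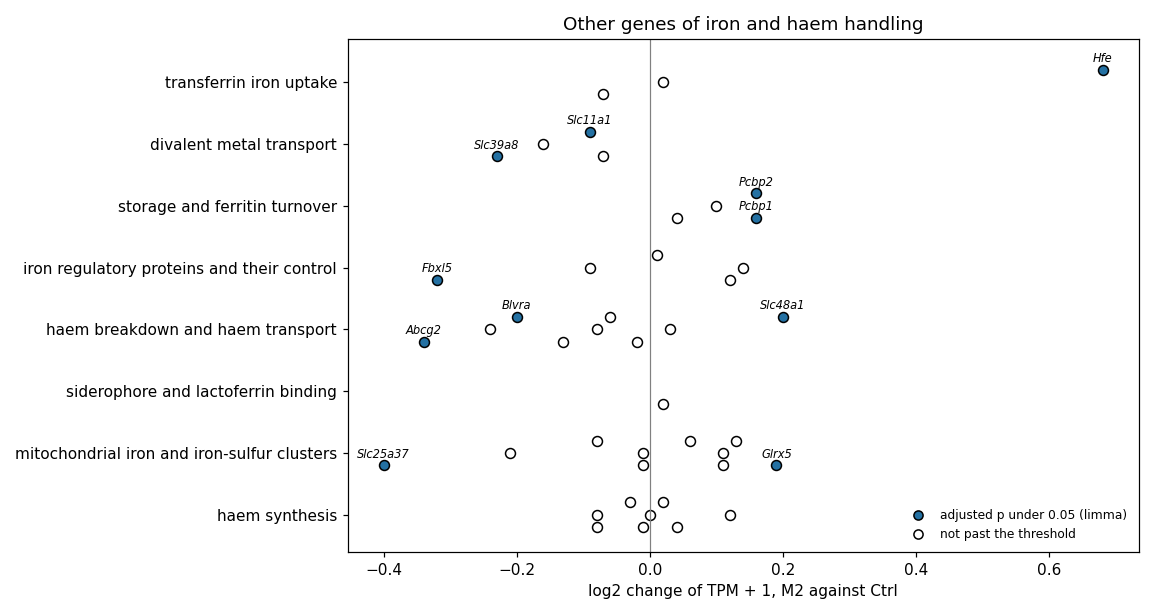
Log2 change of TPM + 1 in M2 against Ctrl (horizontal axis) for the 44 other iron and haem genes tested, by list; filled points passed a limma adjusted p of 0.05. Hfe lies furthest right at 0.68 and Slc25a37 furthest left at -0.40, while no gene of haem synthesis is filled.

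Among the other genes on the list for transferrin iron uptake, which do not all act to raise uptake, 1 of 3 tested rose. Hfe, whose product binds the transferrin receptor, averaged 22.9 ± 2.17 TPM in M2 and 13.99 ± 1.92 TPM in Ctrl (log2 change 0.68, limma adjusted p = 0.0033). Of 4 divalent metal transporters tested, 2 fell. Slc11a1, the NRAMP1 transporter of phagosomes, averaged 485.5 ± 3.32 TPM in M2 and 518 ± 5.97 TPM in Ctrl (-0.09, adjusted p = 0.0198), a call lost with the shared reads separated (0.0573). Slc39a8, a zinc and iron importer, averaged 22.5 ± 1.31 TPM in M2 and 26.6 ± 0.848 TPM in Ctrl (-0.23, adjusted p = 0.0178).

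Of 4 other storage genes, the iron chaperones Pcbp1 and Pcbp2, which load ferritin, both rose. Pcbp1 averaged 856 ± 22.9 TPM in M2 and 765 ± 12.2 TPM in Ctrl, and Pcbp2 averaged 317 ± 8.20 TPM in M2 and 282.5 ± 2.34 TPM in Ctrl. Each had a log2 change of 0.16 (adjusted p = 0.00429 for Pcbp1 and 0.00358 for Pcbp2). Of 5 other genes around the iron regulatory proteins, 1 fell. This was Fbxl5, the ubiquitin ligase subunit that marks IRP2 for degradation, at 11.5 ± 0.307 TPM in M2 and 14.7 ± 1.3 TPM in Ctrl (-0.32, adjusted p = 0.0159). Fbxl5 averaged 13.3 ± 0.370 TPM in Q11 cells, between the other groups.

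Of 9 genes of haem breakdown and transport tested, 1 rose and 2 fell. Slc48a1, which carries haem out of the phagolysosome, averaged 441 ± 7.86 TPM in M2 and 384.5 ± 10.3 TPM in Ctrl (0.20, adjusted p = 0.00591). Blvra, a biliverdin reductase that acts after haem oxygenase, averaged 168 ± 4.42 TPM in M2 and 194 ± 13.9 TPM in Ctrl (-0.20, adjusted p = 0.0345). Abcg2, an efflux pump that also carries porphyrins, averaged 17.5 ± 0.859 TPM in M2 and 22.3 ± 0.727 TPM in Ctrl (-0.34, adjusted p = 0.00387). The constitutive haem oxygenase Hmox2 (adjusted p = 0.319) and the haem-sensing repressor Bach1 (0.427) did not pass. Flvcr1, a haem exporter, averaged 54.0 ± 2.11 TPM in Q11, 47.2 ± 1.76 TPM in M2 and 47.9 ± 1.56 TPM in Ctrl, and it passed in Q11 against Ctrl as deposited (adjusted p = 0.0382) but not with the shared reads separated (0.0694).

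Of 10 mitochondrial iron and iron-sulfur genes, 1 rose and 1 fell. Slc25a37, the mitochondrial iron importer mitoferrin 1, averaged 32.6 ± 0.198 TPM in M2 and 43.4 ± 0.588 TPM in Ctrl (-0.40, adjusted p = 1.18e-04 by limma). Glrx5, a glutaredoxin of cluster assembly, averaged 105 ± 2.83 TPM in M2 and 91.8 ± 1.39 TPM in Ctrl (0.19, adjusted p = 0.00336). None of the 8 haem synthesis genes passed. Of the other genes of export and of the hepcidin axis, none reached the filter. Hamp, the hepcidin gene, had 0 or 1 reads in each library, too few to show a change. Cp, the ferroxidase ceruloplasmin, with 18 to 69 reads, and Lcn2, which binds bacterial siderophores, with 3 to 13 reads, were also below the filter and were not tested.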

How the data were processed

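Poly-A RNA from 9 libraries of J774A.1 cells (3 each of Q11, M2 and Ctrl) was sequenced from NEBNext Ultra libraries, per the labels' protocols. Per the submitters' processing notes, the tools were HISAT2 2.0.5 and StringTie 1.3.3b with build GRCm38; no annotation release is stated. The authors deposited TPM for 26157 genes in 1 table, each column summing to 1000000. TPM times GENCODE M21 exon length (25573 genes matched, 97.8%) gave whole reads, within 0.1 read, for 98.8 to 99.1% of values of up to 20 reads, from which reads per library were recovered.

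The 14207 genes that reached 1 TPM in 3 or more libraries were tested on log2(TPM + 1), two-sided, in R 4.3.3 using lmFit, contrasts.fit and eBayes with a trend (limma 3.58.1), with 1 mean per group over all 9 libraries. Benjamini-Hochberg adjustment covered every gene tested. The fit was tested on simulated data, drawn as independent libraries with the same spread for all genes. It was not tested on simulated libraries that share reads or on a spread that differs between genes. Ratios were compared by exact permutation (scipy 1.17.1). Members and lists were chosen with earlier results of these data known, and some listed genes are not reported here. From the lists, genes past the threshold were named, at most 4 per list with the largest changes and at least 5 TPM, with Slc11a1, Slc48a1, Lcn2, Fbxl5, Pcbp1, Bach1 and Hmox2 whatever their values. Alternatives were another pseudocount (0.1), no filter or one of 5 TPM, 2 other scalings, no trend, only the groups compared, a replicate block, each library left out, shared reads separated, and limma-voom on the recovered reads.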

Additional observations from a re-analysis of the deposited data

How the results depend on the processing

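Tfrc and Slc40a1 kept their direction and passed in all 19 alternatives, in M2 against Ctrl and in Q11 against Ctrl; the lost calls of Fth1 and Aco1 are given with those genes, and Ftl1 in Q11 against Ctrl passed with limma-voom alone (0.11, adjusted p = 0.0189). The number of genes called in M2 against Ctrl, 1794, was 1054 with only the compared groups in the fit and 1139 to 1651 with 1 library left out, lowest without Ctrl replicate 1 (1139) and Ctrl replicate 3 (1161). With the shared reads separated it was 1308 of 13996 genes tested, although the values of the M2 and Ctrl libraries were the same. In Q11 against M2 it was 0, but 3 with no filter, 2 with no trend, 2 with limma-voom, and 0 to 2 with 1 library left out. In Q11 against Ctrl it was 1524 and 776 to 1613 with 1 left out, lowest without Q11 replicate 3 (776) and Q11 replicate 2 (798). The cause of these shifts was not tested, and fits with fewer libraries have less power by construction.

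Signs turned only among changes that did not pass. Quantile normalization gave Steap3 -0.002 in M2 against Ctrl and -0.006 in Q11 against Ctrl, and Fth1 -0.02 and Ftl1 -0.03 in Q11 against M2. Separating the shared reads gave Steap3 0.005 and Slc11a2 0.02 in Q11 against M2. With 1 library left out, changes in M2 against Ctrl ran from -0.005 to 0.04 for Steap3, -0.08 to 0.02 for Ncoa4, -0.02 to 0.04 for Ireb2 and -0.07 to 0.005 for Hmox1. In Q11 against M2 they ran from -0.04 to 0.01 for Steap3, -0.02 to 0.008 for Slc11a2, -0.04 to 0.06 for Fth1, -0.02 to 0.06 for Ftl1 and -0.03 to 0.08 for Ncoa4, and in Q11 against Ctrl from -0.03 to 0.03 for Steap3 and -0.03 to 0.04 for Ncoa4. The log2 difference of the Fth1 to Ftl1 ratio in Q11 against M2 ran from -0.10 to 0.053, and that of the ferritin share from -0.0046 to 0.036 percentage points.

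The replicate numbers did not pair the libraries (correlation of same-numbered deviations -0.0309 to 0.0362). With the replicate block, 1335 genes were called in M2 against Ctrl, 0 in Q11 against M2 and 1086 in Q11 against Ctrl, and among the members Fth1 in Q11 against Ctrl (-0.20, limma adjusted p = 0.0518) was no longer called. With 3 libraries a group, permutation tests cannot go below p = 0.1, and Slc40a1 rests on 171 to 368 reads a library.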
